A study of Mus musculus with 11 samples.

Results

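The protein-coding genes of the cytosolic ribosome were followed in RNA-seq count tables of mouse hippocampus. Members were chosen by name: protein-coding genes of the GENCODE mouse annotation (release M21, GRCm38) called Rpl or Rps with a number, with Rplp0, Rplp1, Rplp2 and Rpsa, without the Rps6k kinases, and with at least 10 counts in total over all mice. Of 85 such genes, 84 passed this count, out of 20589 that passed it among the 38293 genes listed. The missing gene, Rpl10l, an autosomal relative of the X-linked Rpl10 that is known from testis, had 0 counts in all 11 mice, which allows a mean level of at most 0.0117 CPM (counts per 1e6 counts on genes). The 84 members were 42 core genes of the large (60S) subunit, 31 core genes of the small (40S) subunit, the 3 genes of the P-stalk, 7 paralogues (Rpl3l, Rpl7l1, Rpl22l1, Rpl36al, Rpl39l, Rps27l and Rps27rt) and Rps19bp1, which the naming rule takes in although it encodes a protein that binds RPS19 and not a part of the ribosome.

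The mice were wildtype F1 offspring of 129S6/SvEv and C57BL/6J stock, taken at 14 weeks of age. For the 6 weeks before mating, their mothers had eaten a control diet with 2.3 mg folic acid per kg (CD offspring, n = 6, 3 males and 3 females) or a supplemented diet with 40 mg per kg (FD offspring, n = 5, 2 males and 3 females), and from mating onwards every dam and every offspring mouse received the control diet. Each library was made from total RNA of whole frozen hippocampus, so that fewer cells of a type and less RNA per cell cannot be told apart. The study asked whether the diet of the mother before conception was followed by altered hippocampal expression in the offspring. No source used here gives the litters of the sequenced mice, so the spread between mice may hold shared mothers, and p-values measure only the spread between these 11 samples.

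A ribosome is built from ribosomal RNA and about one copy each of its many proteins, and the genes for these proteins are among the most steadily transcribed in any cell. Their mRNAs usually begin with a C followed by a run of pyrimidines, the 5′ terminal oligopyrimidine (TOP) tract, through which translation is tied to the mTOR kinase. They are also the richest source of processed pseudogenes in mammalian genomes, since their abundant spliced mRNAs were often copied back into DNA. In neurons they supply both the cell body and local ribosomes in dendrites and axons.

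The files held 11737554 to 44447006 counts on genes per mouse, and depth did not differ detectably by diet (exact permutation test over all 462 divisions of the 11 mice, two-sided, p = 0.587) or by sex (exact p = 0.615). Xist, the RNA of the inactive X chromosome, had 7426 to 30462 counts in the libraries labelled female and 6 to 27 in those labelled male. The 10 hippocampal neuron markers together reached 985 to 1121 CPM. CPM values here and below are scaled by TMM factors, which make libraries of different make-up comparable. Within a diet group every pair of libraries differed by more than the noise of counting, with a chi-square of at least 4.13 for each degree of freedom.

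The sequences of the Rps27 family are shown first because they set what 50-base reads can say about it. RPS27 is a zinc-finger protein of the small subunit. Coding bases 1 to 60 are given 5′ to 3′ from the GENCODE transcripts (GRCm38), with capitals where a gene differs from Rps27. Rps27 lies at chr3:90212522-90213651 on the minus strand, Rps27rt (a retrotransposed copy without introns) at chr9:114982366-114982739 on the minus strand, and Rps27l at chr9:66946086-66949516 on the plus strand.
Rps27: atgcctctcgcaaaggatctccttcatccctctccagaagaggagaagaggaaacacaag
Rps27rt: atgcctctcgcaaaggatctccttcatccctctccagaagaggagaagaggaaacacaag
Rps27l: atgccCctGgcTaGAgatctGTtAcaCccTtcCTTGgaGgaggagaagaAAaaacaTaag
Over the whole coding sequence of 252 bases, without the stop codon, Rps27rt differed from Rps27 at 0 positions and Rps27l at 60, of which 18 fall in the 60 bases shown. Of the 50-base windows of the Rps27 transcript, 1.4% occurred in no other annotated gene, against 77.6% for Rps27l. Rps27, a core subunit gene, had 105 counts over all 11 mice and its paralogue Rps27l had 1556, while Rps27rt had 27. In single mice Rps27 had between 1 and 22 counts, Rps27rt between 0 and 6, and Rps27l between 54 and 274. Per kb of transcript the mean counted level was 1.14 CPM for Rps27 and 12.04 CPM for Rps27l, the paralogue standing above the core gene. With so few unique windows in Rps27, how much mRNA each gene makes cannot be read from this order.

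Rps6 is a second case, shown because phosphorylation of its protein by the S6 kinases is a standard readout of mTOR activity. Coding bases 471 to 520 of Rps6 (chr4:86854660-86857412, minus strand), as long as a single read, were present letter for letter in 13 annotated pseudogenes.
Rps6: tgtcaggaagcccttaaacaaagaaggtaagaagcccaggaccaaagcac
Of the 698 coding windows of 50 bases in Rps6, 0 were absent from every pseudogene, and the unique 15.4% of its transcript windows therefore lay outside the coding sequence or across its ends. Rps6 had 311 counts over the 11 mice, or 0.636 to 1.65 CPM per mouse, and the 11 of its 14 sharing pseudogenes that the files list had 383 counts together. Its mean of 1.36 CPM per kb of transcript was below the median of the 84 members on that scale, 15.4 CPM.

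The same measure was taken for every member. The files hold uniquely aligned reads only, so a read that fits several places in the genome is not counted on any gene. Of the 84 members, 80 shared 50-base windows with at least 1 pseudogene, the median number of such pseudogenes was 8, and Rpl7a, a large-subunit gene, had the most with 120. The median unique share was 57.5%, and 33 members had less than 50% of their windows to themselves. By this measure 4 members were wholly unique, among them Rpl3l, Rpl39l and Rps19bp1. The measure covers annotated transcripts and exact matches, not copies outside the annotation. For 14 members the pseudogenes sharing their sequence had more counts than the member itself, one of them Rpl3 (2949 counts on the gene, 7331 on 18 listed pseudogenes). A read counted on a pseudogene may come from that copy, from a gene around it or from the parent, and this was not tested.

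Levels followed the unique share loosely. Across the 84 genes, which share the same libraries, Spearman's rho between the mean CPM per kb of transcript and the unique share was 0.359, and 0.436 per kb of all annotated exons. The 16 members with less than 20% unique windows had a median of 4.58 CPM per kb of transcript, the 17 members with 20 to 50% had 15.8, the 33 members with 50 to 75% had 21 and the 18 members with 75% or more had 16.1. The step was between the lowest class and the others. Whether reads from windows shared between transcripts still aligned to a single place in the genome was not tested. A fold change between mice compares a gene with itself and rests on the reads counted on that gene.

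**Figure D1:**
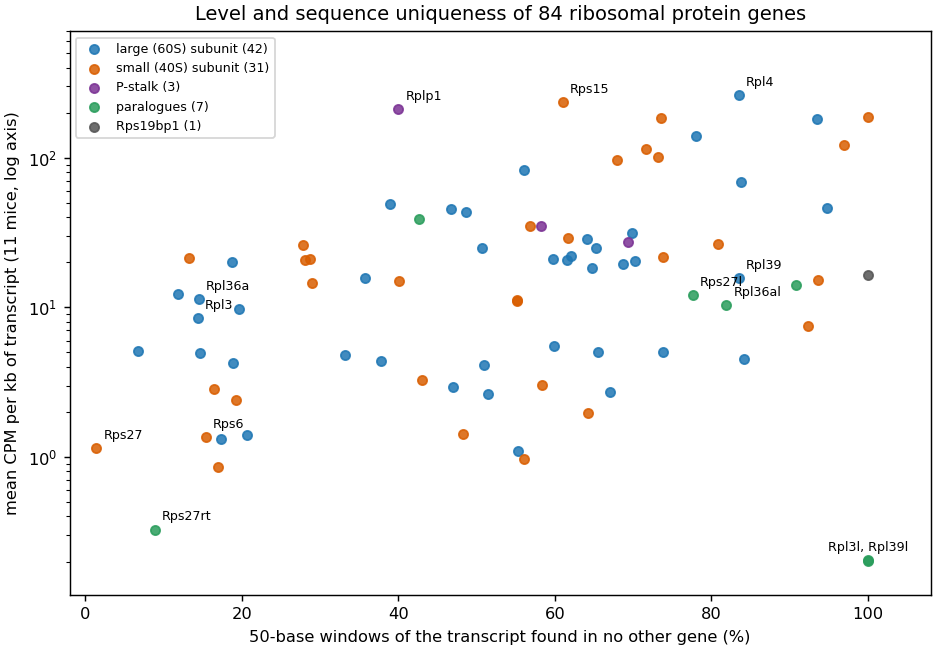
Each point is a ribosomal protein gene, with the share of its 50-base transcript windows found in no other gene (%) on the x axis and its mean CPM per kb of transcript over 11 mice on a log y axis, coloured by class. The levels span from 0.202 (Rpl39l) to 261 (Rpl4), and the 16 genes left of 20% have a median of 4.58.

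Together the 84 members took 744199 of 257220491 counts, or 0.269% to 0.324% of the gene counts of a mouse. The range among members was wide: per kb of transcript, mean levels ran from 0.202 CPM (Rpl39l) to 261 CPM (Rpl4) with a median of 15.4 CPM. Before scaling to length, 7 members had 100 CPM or more and 7 under 1 CPM, and 74 had at least 10 counts in every mouse. Rpl4, which lines the tunnel through which the new protein leaves the ribosome, alone held 13.9% of the member counts, and the 5 genes with most counts, among them Rpl4, Rps3, Rpl8 and Rpl13a, held 38.7%. Rpl4 was at 377 to 461 CPM in the 11 mice. Rps3, at the mRNA entry of the small subunit, was at 210 to 265 CPM, and Rpl8, near the catalytic centre, at 159 to 218 CPM.

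Per kb of unique sequence, counted over all transcripts of a gene, the order changed at the top. Rplp1, the stalk protein P1, stood highest with 584 CPM per kb, followed by Rps15 of the small-subunit head with 290, Rpl4 with 228 and Rpl8 with 147 CPM per kb. The lowest were the muscle paralogue Rpl3l with 0.177, the testis-linked Rpl39l with 0.196, Rps13 with 0.210 and Rps27 with 0.445 CPM per kb. For Rps13 and Rps27 this scale counts 2410 and 888 unique windows over all transcripts. The single transcript used for the unique share has 540 and 296 windows, 17.0% and 1.4% of them unique. Their low place thus depends on the annotated transcripts, and how much mRNA they make cannot be read from it. Rpl3l and Rpl39l were wholly unique by the window measure, and had 74 and 37 counts over all mice. Rpl39l was at 0 counts in FD female 2 and FD male 2 and reached 0.666 CPM, its highest level, in CD female 3. At Rps13, a core gene with 17.0% unique windows, the 11 mice lay between 0.256 and 0.732 CPM.

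The paralogue pairs differed in their arrangement, read first as mean CPM per kb of transcript. The core gene stood above its paralogue for Rpl3 (8.42) and Rpl3l (0.205), for Rpl39 (15.7) and Rpl39l (0.202) and for Rpl7 (45.7) and Rpl7l1 (14.0). Rpl22 (46.4) and Rpl22l1 (39.1), a pair known to regulate each other, were closer, as were X-linked Rpl36a (11.3) and its retrotransposed autosomal copy Rpl36al (10.4). On this scale Rps27 and Rps27l were the pair in which the paralogue stood higher. Per kb of unique sequence, counted over all transcripts, Rpl36al (11.4 CPM) also stood above Rpl36a (4.21 CPM), and Rpl22 (32.9 CPM) and Rpl22l1 (10.99 CPM) were further apart. These orders depend on the transcripts annotated for a gene. Rpl36a had 1302 unique windows over all transcripts, while the single transcript used for its unique share had 434 windows, 14.5% of them unique. For Rpl22l1 these values were 1966, 503 and 42.7%. The unique shares of the partners differ, at 14.4% and 100% for Rpl3 and Rpl3l, 94.8% and 42.7% for Rpl22 and Rpl22l1, 14.5% and 81.9% for Rpl36a and Rpl36al, and 46.7% and 90.8% for Rpl7 and Rpl7l1. They differ most widely for Rps27 and Rps27l, at 1.4% and 77.6%, and for Rpl3 and Rpl3l. How much mRNA each partner makes therefore cannot be read from these levels. Over the 11 mice Rpl22 kept to 88.3 to 106 CPM and Rpl22l1 to 18.8 to 24.96 CPM, Rpl36a to 4.73 to 6.35 CPM and Rpl36al to 10.2 to 16.7 CPM. For Rps4x, the X-linked small-subunit gene, 27.8% of windows were unique and the range was 23.6 to 28.4 CPM.

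Further genes with roles beyond the ribosome had low counted levels. Rpl5 and Rpl11, which carry the 5S RNA into the large subunit and bind MDM2 when assembly stalls, were at 4.12 to 6.14 and 2.74 to 4.88 CPM. Rpsa, also known as the laminin receptor, was at 1.65 to 2.22 CPM, and Rps27a, translated as a fusion to ubiquitin, at 2.07 to 3.20 CPM. Per kb of transcript these 4 genes had 2.65, 4.36, 0.967 and 3.29 CPM, all below the median member, with unique shares between 37.8% and 56.0%. Only uniquely aligned reads are counted, so how much mRNA these genes make cannot be read from these levels.

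What the start sites of the members share was read from the RefSeq windows (GRCm38.p6), in which 64 of 84 members had an entry. A C at the annotated start base followed by at least 4 pyrimidines was present in 14 of 64 members (21.9%), against 3.0% of 27025 genes. Allowing it to begin within 5 bases of the start, it was found in 24 members (37.5%) against 15.6%. CCGGAAG, the core of an ETS factor site, was found on either strand in 26 members (40.6%) against 9.9% of all genes, GGGCGG, the core of an SP1 site, in 40 (62.5%) against 38.2%, and TATAAA in 7 (10.9%) against 15.7%. These are matches of letters in windows of the same length. A gene with several start windows was counted if any of them matched, so such genes had more chances of a match. A start annotated a base away from the used one removes a match of the first kind.

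Windows are shown for the genes described below that passed the test between the sexes, where there was an entry (none for Rplp1 and Rps20), and for Rps10 and Rps15a, whose male and female ranges did not overlap. They run from 10 bases before the start base to 19 after it, 5′ to 3′ on the gene's strand, with the tract in capitals. Rplp2 (chr7:141447641-141447670, plus strand), Rpl28 (chr7:4792955-4792984, plus), Rps10 (chr17:27635225-27635254, minus) and Rps15a (chr7:118116128-118116157, minus) have a tract at the annotated start. Rplp0 (chr5:115559457-115559486, plus), Rpl37a (chr1:72711250-72711279, plus), Rpl41 (chr10:128549149-128549178, minus), Rps26 (chr10:128626487-128626516, minus) and Rpl10 (chrX:74270806-74270835, plus) have none there. Rpl15 (chr14:18270967-18270996, minus) is added as the member with the longest tract, 13 bases, and Rps6 (chr4:86857348-86857377, minus) for its link to mTOR.
Rplp2: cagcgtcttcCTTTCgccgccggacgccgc
Rpl28: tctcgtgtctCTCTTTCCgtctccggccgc
Rps10: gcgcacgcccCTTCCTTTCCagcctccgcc
Rps15a: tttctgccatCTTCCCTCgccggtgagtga
Rplp0: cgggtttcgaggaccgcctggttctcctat
Rpl37a: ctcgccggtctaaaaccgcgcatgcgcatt
Rpl41: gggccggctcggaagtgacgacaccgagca
Rps26: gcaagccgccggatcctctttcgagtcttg
Rpl10: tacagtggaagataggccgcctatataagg
Rpl15: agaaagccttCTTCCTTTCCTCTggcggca
Rps6: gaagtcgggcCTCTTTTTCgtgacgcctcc
The set was chosen by values between the sexes, so nothing is read from how many of its windows hold a tract.

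The members varied together from mouse to mouse. Among the 48 members of at least 10 CPM, the median Pearson correlation of log2 CPM between pairs of genes over the 11 mice was 0.505, and 87.9% of pairs were positive, beside a median of 0.029 and 52.0% for all 9973 genes of that level. These pairs share libraries and depth. Rplp0 (median r with the other 47 members 0.72) and Rpl13a (0.71) were among the closest to the common pattern. Rps15a (-0.33) and Rps25 (-0.18), both of the small subunit, ran against it. The mouse-to-mouse SD of log2 CPM was 0.129 for the median of these members, beside 0.107 for all genes of that level, so the median member varied somewhat more. The shared movement was small: the median log2 deviation of these members ran from -0.13 (FD male 2) to 0.19 (CD female 1).

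This shared movement went along with the share of reads outside genes. The summed member level was highest in CD female 1, with 3298 CPM and 46 of the 48 genes above their own mean, followed by CD female 3 (3141 CPM, 40 of 48), FD female 3 (3061 CPM, 41 of 48) and FD female 1 (2926 CPM, 27 of 48). These 4 mice were also the 4 with the smallest share of reads outside genes, at 7.01%, 8.91%, 8.18% and 8.59% of the reads in the file, although CD male 1 was close to them at 8.95%. Taken of the uniquely aligned reads, the share was 10.40% in CD male 1 and 10.55% in CD female 3, which was then not among the 4 smallest. Of the other 2 females, CD female 2 (2746 CPM, 9.53%) lay among the 5 males, which were at 2688 to 2849 CPM and 8.95% to 11.03%, and FD female 2 (2660 CPM, 10.5%) had the lowest summed member level of all 11 mice. The share of reads with several alignments, which bears on genes with many copies, was also highest in CD female 1 (16.0%), CD female 3 (15.6%) and FD female 3 (15.1%), the 3 mice with the highest member level, and was 13.7% to 14.5% in the other 8. It was not shown to differ by sex (exact permutation test, two-sided, p = 0.0823, adjusted over 6 such tests 0.247), and its part in the member levels was not tested. The share of reads outside genes was not shown to differ by sex (exact permutation test, two-sided, p = 0.0628, adjusted over 6 such tests 0.247) or by diet (exact p = 0.593), and beyond the covariate fit below its part in the member levels was not tested.

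**Figure D2:**
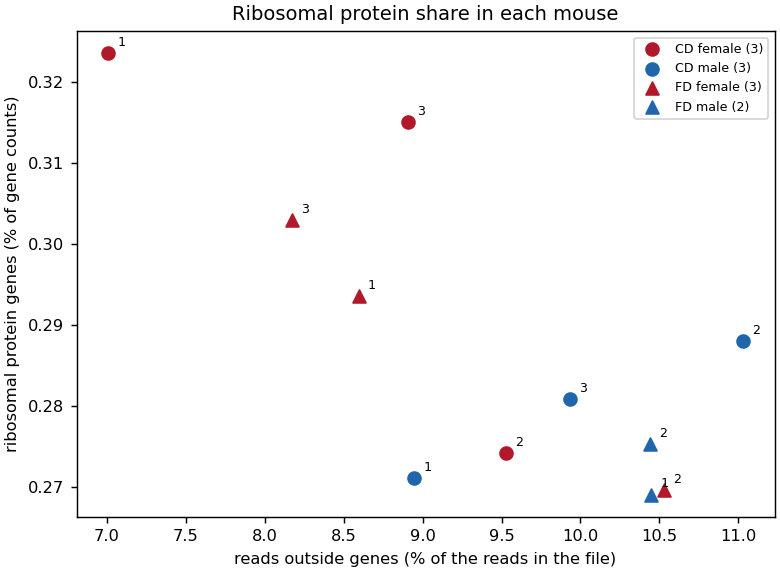
Each point is a mouse, with the share of its reads that fell outside genes (%) on the x axis and the share of its gene counts on the 84 ribosomal protein genes (%) on the y axis; colour gives sex, shape gives diet and digits the replicate number. The 4 mice with the largest member share, 0.294% to 0.324%, are females with at most 8.91% of reads outside genes, and the other 7 lie at 0.269% to 0.288%.

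**Figure D3:**
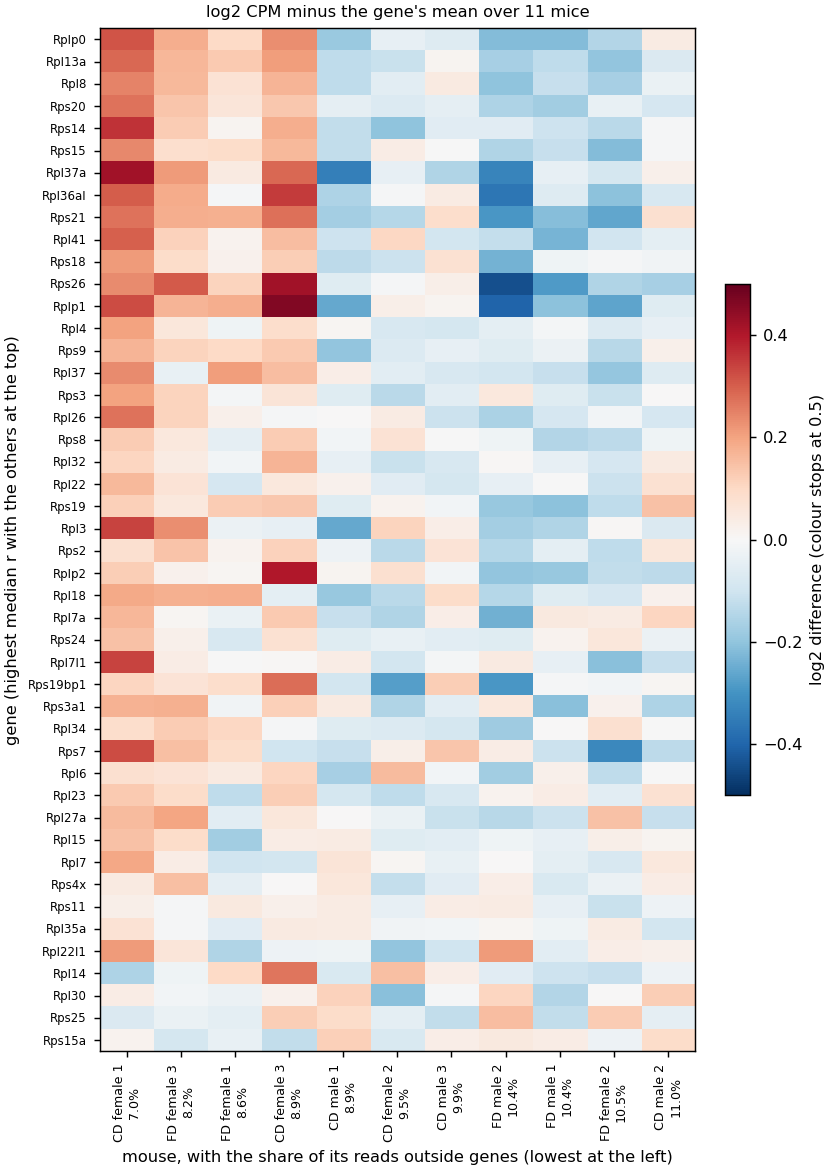
Rows are 46 of the 48 ribosomal protein genes of at least 10 CPM and columns the 11 mice, ordered by their share of reads outside genes. Colour is log2 CPM minus the gene's mean. Red dominates in CD female 1, where 46 of the 48 genes are above their mean, and Rps25 and Rps15a at the bottom run against the rest.

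The first comparison asked whether the maternal diet moved these genes. No member was called: 0 of 84 passed an adjusted p of 0.1 in edgeR's quasi-likelihood test, where 0.068% of the 20589 genes did (14 genes). Before adjustment 2 members had a p under 0.05 (DESeq2 gave 1, and 0 after adjustment). That count was 0 without FD male 1 or FD female 2, 5 without FD female 3 and 7 with sex as a covariate. The FD and CD ranges overlapped for all 84, while 0.505% of all genes had ranges that did not overlap. The log2 fold changes were small and mostly below 0. They were negative for 67 of 84 members, with a median of -0.06, while 51.8% of all genes were negative with a median of 0.00. Among the 48 members of at least 10 CPM, 41 were lower in FD, with a median of -0.06 and none beyond -0.21 or 0.06, while 58.9% of the 9973 genes of that level were lower. This lean is a count over genes that move together, and it weakened to 54 of 84 lower without CD female 1, the mouse with the highest member level.

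By role, 32 of 42 core 60S genes were lower in FD (median log2 fold change -0.04), 25 of 31 core 40S genes (median -0.06), all 3 stalk genes (-0.17 for the median gene) and 6 of 7 paralogues (median -0.15), and 0 genes of any class passed the test. The lowest values in the paralogues came from sparse counts, with Rpl39l at -0.83 ± 0.72 (SE) on 37 counts.

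Rpl23a, at the tunnel exit where the signal recognition particle docks, had few counts (183 over all mice). Its CD mice were at 0.565, 0.823 and 1.37 CPM as lowest, median and highest, and its FD mice at 0.552, 0.619, 0.533, 0.707 and 0.538 CPM. The fold change of -0.50 ± 0.23 (SE, edgeR adjusted p = 1.0) rested in part on CD female 2, at 1.37 CPM, and 62.3% of the exon bases of Rpl23a lie in other genes (Snord42b and Tlcd1).

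Rpl19 and Rps12 had the largest positive values of the named members. For Rpl19, whose protein bridges to the small subunit, the CD mice were at 0.768, 0.862 and 1.23 CPM (lowest, median, highest) and the FD mice at 0.930, 1.38, 1.45, 0.919 and 1.53 CPM, for a log2 fold change of 0.41 ± 0.20 (SE, edgeR adjusted p = 1.0). Of the FD mice, 3 were above all CD mice. Rps12 gave 0.26 ± 0.15 and Rps27l -0.24 ± 0.13, both with overlapping mice. Rplp2, the stalk protein P2, was at 23.8, 26.9 and 34.4 CPM in CD and at 26.2, 22.9, 23.9, 22.7 and 26.5 CPM in FD, with a log2 fold change of -0.17 ± 0.084 (SE, edgeR adjusted p = 1.0). None of these 5 genes passed the test in any of the alternatives tried. Among the marker lists of cell types 0 genes were called for diet. All 8 meningeal markers were higher in FD (summed level 120 to 360 CPM, median 232, against 89.7 to 220 in CD, median 166). So were all 9 markers of thalamus and striatum (150 to 227 and 146 to 163 CPM), with close medians of 161 and 158 CPM. Also higher in FD were 5 of 5 blood, 6 of 7 astrocyte and 4 of 6 endothelial markers. Lower were 7 of 8 oligodendrocyte, 7 of 10 neuronal, 7 of 10 choroid plexus and 5 of 8 microglial markers. The part of these cell types in the ribosomal protein values was not tested.

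**Figure D4:**
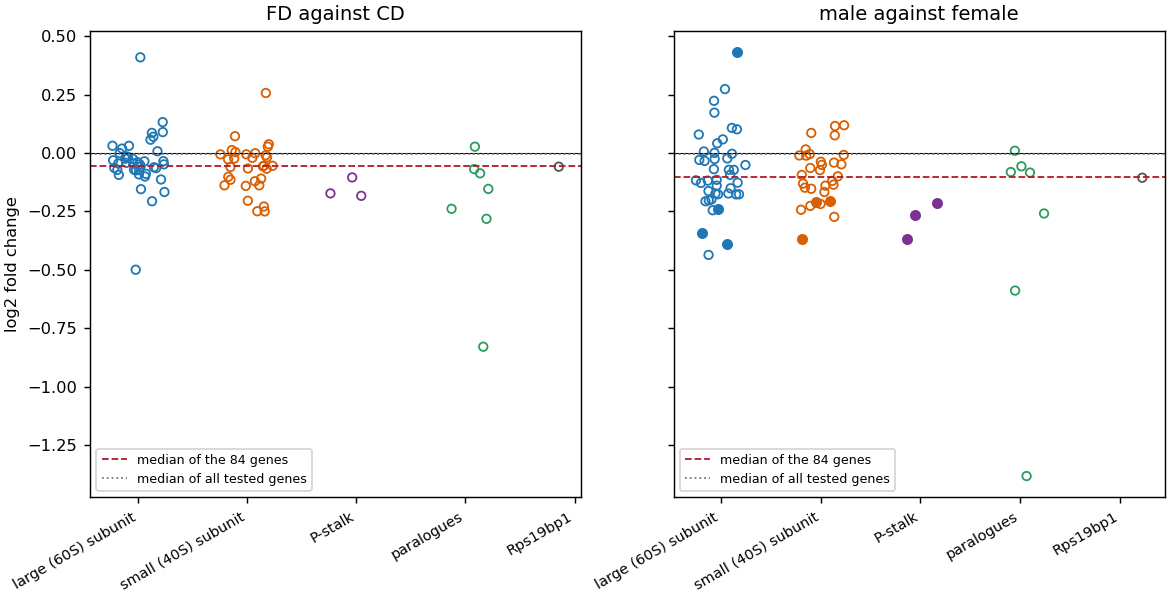
Each point is a ribosomal protein gene, with its log2 fold change on the y axis for FD against CD (left) and male against female (right), by class. Filled points passed an adjusted p of 0.1 in edgeR: 0 at the left and 10 at the right, of which 9 lie below 0. The dashed line is the median of the 84 genes (-0.06 and -0.10) and the dotted line that of all tested genes.

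The second comparison, males against females with diet in the model, gave calls. Of the 84 members 10 passed an adjusted p of 0.1, or 11.9%, beside 6.11% of all genes. In males 9 were lower, where 3.03% of all genes were called lower, and 1 was higher, where 3.07% were. The lower genes included the complete stalk (Rplp0, Rplp1 and Rplp2), the 60S genes Rpl28, Rpl37a and Rpl41, and the 40S genes Rps20 and Rps26. The higher gene was Rpl10. Calls were more frequent among genes of higher level. Of the 48 members of at least 10 CPM 8 were called (16.7%), all lower in males. Beside them 10.3% of the 9973 genes of that level were called, 508 of them lower in males. At an unadjusted edgeR p under 0.05 there were 24 of the 84 members, beside 4173 of the 20589 genes. In males 67 of 84 members were lower, with a median log2 fold change of -0.10. Of all genes 50.9% were lower, with a median of 0.00. Among those of at least 10 CPM, 44 of 48 members and 52.2% of the 9973 genes were lower. As for diet, this lean is a count over genes that move together.

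These calls depended on single libraries and on the model. The share of reads outside genes was also used as a covariate, here taken of the uniquely aligned reads (8.34% to 12.9% per mouse). With it 0 of the 84 members and 9 of all genes passed the test, 58 members were still lower in males and the median was -0.06. Leaving out a mouse gave 0 members without CD male 1, CD male 2, CD female 1, CD female 3, FD female 1, FD male 2 or FD female 3, 4 members without CD male 3 or FD male 1, 19 without FD female 2 and 21 without CD female 2. DESeq2 called 20 members, with all 10 of edgeR's among them. The larger counts went with more calls among all genes, at 13.2% without FD female 2, 15.7% without CD female 2 and 9.92% in DESeq2. The direction for members as a group was kept in each of these fits, with 58 to 72 of 84 lower in males. These fits share most of their mice and the members move together, so the kept direction is not independent evidence. Cell type markers also moved with sex: all 8 oligodendrocyte markers were lower in males (1 called, summed level 4172 to 5226 CPM in males and 4277 to 6759 in females), as were 7 of 8 microglial markers (2 called, 318 to 362 and 340 to 377 CPM), while the 7 astrocyte markers split (1 called in each direction, 4625 to 4877 and 4106 to 4726 CPM). Of the other lists, 1 of 8 meningeal markers was called higher in males and 0 were called of 10 neuronal, 10 choroid plexus, 5 blood, 6 endothelial and 9 thalamic and striatal markers. Their part in the ribosomal protein values was not tested.

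The stalk genes encode the flexible arm that recruits elongation factors, P0 as its base and P1 with P2 as its tips. Rplp1 had 86.1, 117 and 142 CPM in females (lowest, median, highest) and 86.6, 99.1, 105, 89.7 and 78.4 CPM in males, for a log2 fold change of -0.37 ± 0.086 (SE, edgeR adjusted p = 0.0638). Rplp0 had 42.2, 51.6 and 58.1 CPM in females and 41.1, 48.1, 44.6, 40.2 and 40.2 CPM in males, for -0.27 ± 0.070 (adjusted p = 0.0733). For Rplp1 only FD female 2 lay within the male range, and for Rplp0 FD female 2 and CD female 2 did. Rplp2 showed a smaller step, from 23.9, 27.0 and 34.4 CPM in females to 26.3, 23.8, 25.8, 22.9 and 22.7 CPM in males, for -0.21 ± 0.065 (adjusted p = 0.0907). The stalk genes summed to 152 to 232 CPM in females and 141 to 175 CPM in males, and their diet values were also negative without passing the test.

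Among the other genes lower in males, Rpl41 had the smallest p. Its product is the shortest protein of the ribosome, bridging both subunits. Females had 44.5, 51.4 and 58.5 CPM (lowest, median, highest) and males 44.3, 46.1, 44.7, 40.5 and 43.8 CPM, which gave -0.24 ± 0.055 (SE, edgeR adjusted p = 0.0631). Only FD female 2 fell within the male range. Rps26, which contacts the mRNA at the exit channel, had 17.7, 22.1 and 26.2 CPM in females and 18.8, 17.5, 20, 16.1 and 14.4 CPM in males, for -0.37 ± 0.088 (adjusted p = 0.0641). Here CD female 2 and FD female 2 lay within the male range.

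Rpl28 (6.17 ± 0.77 CPM, SD, n = 6 females, against 4.78 ± 0.61, n = 5 males) changed by -0.39 on the log2 scale and Rpl37a (12.8 ± 1.8 against 10.3 ± 1.2 CPM) by -0.34, both with an edgeR adjusted p of 0.0840. Rps20 (29.4 ± 2.6 against 25.8 ± 1.1 CPM) changed by -0.21 (adjusted p = 0.0897). In each of these genes males and females overlapped. The calls thus mix genes with many and with few shared windows, from Rpl10 with 14.6% unique, described next, to Rps20 with 92.4%.

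Rpl10 is the X-linked gene for the protein that completes the peptidyl transferase centre. Females had 2.53, 3.77 and 4.65 CPM (lowest, median, highest) and males 5.16, 5.35, 4.52, 4.71 and 4.67 CPM, for a log2 fold change of 0.43 ± 0.13 (SE, edgeR adjusted p = 0.0949). FD female 2, at 4.65 CPM, was the only female within the male range. Of its transcript windows 14.6% were unique, and 15 other genes share the rest. The other 3 X-linked members did not move with it: the log2 fold change, male against female, was -0.07 for Rpl36a, -0.12 for Rpl39 and -0.01 for Rps4x, none past the test.

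Males and females did not overlap at all for Rps10 and Rps15a, 2 of 84 members, beside 1.78% of all genes. This count is close to the share over all genes, so it is not read as a result about the members. Neither passed the adjusted threshold in edgeR, whereas DESeq2 called both (adjusted p = 0.0791 and 0.0482), as did edgeR on genes with at least 10 counts in every mouse (adjusted p = 0.0900 and 0.0919). Rps10, in the head of the small subunit, had 9.36, 10.5 and 11.8 CPM in females and 8.81, 8.58, 9.30, 8.85 and 9.33 CPM in males (log2 fold change -0.24 ± 0.081, SE, edgeR adjusted p = 0.111). The highest male and the lowest female, FD male 2 and FD female 3, were 9.33 and 9.36 CPM. Rps15a went the other way, with 72.0, 75.4 and 79.3 CPM in females and 85.3, 83.6, 80.2, 80.5 and 81.1 CPM in males (0.12 ± 0.045, adjusted p = 0.149). This is the gene that ran most strongly against the other members across mice, and 93.6% of its windows were unique.

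**Figure D5:**
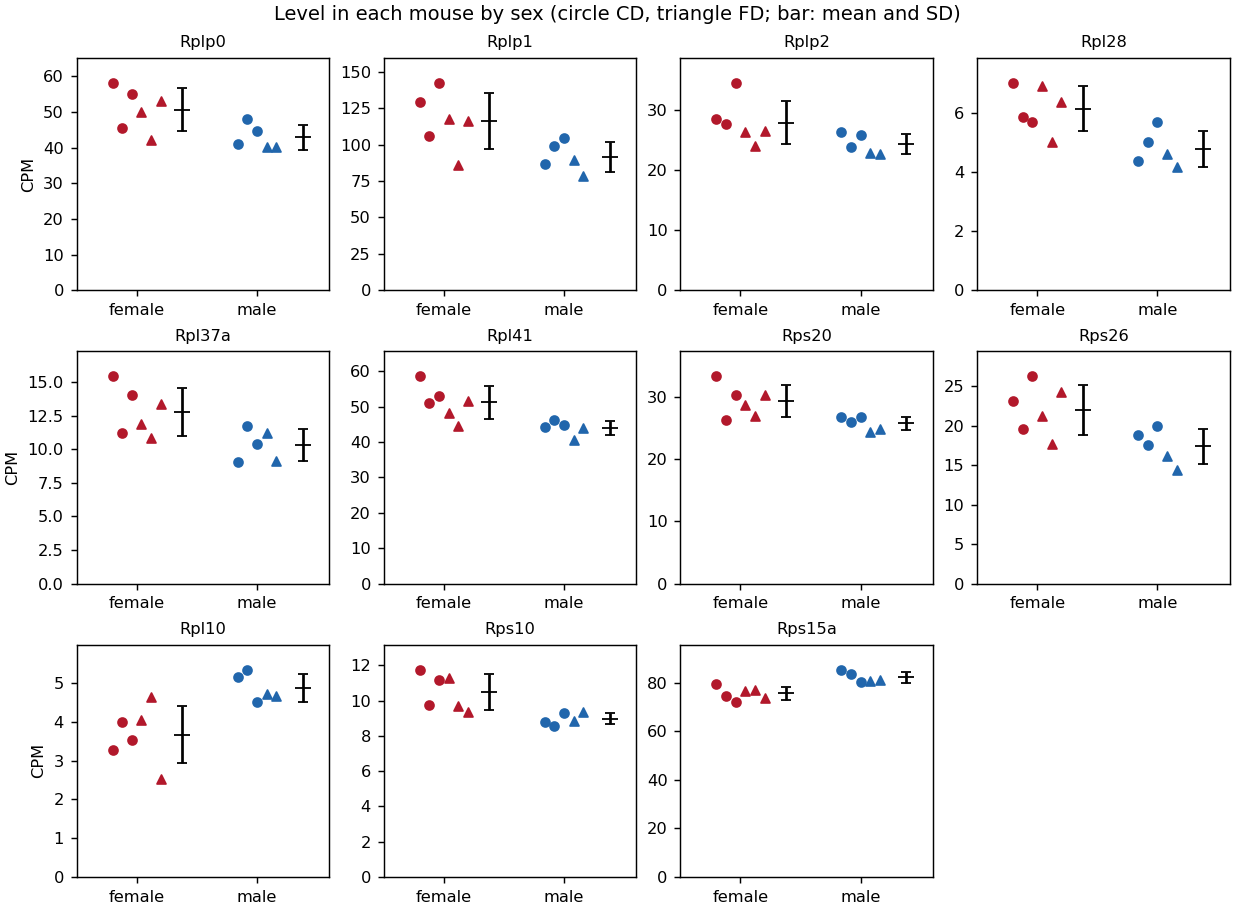
CPM per mouse of 9 of the 10 ribosomal protein genes that passed the test between the sexes and of Rps10 and Rps15a, on axes that start at 0; circles are CD and triangles FD mice, and the bar gives the mean and SD of 6 females or 5 males. Rplp1 is at 116 ± 19 CPM in females and 91.7 ± 10 CPM in males, Rpl10 at 3.67 ± 0.73 and 4.88 ± 0.35 CPM, and the sexes are apart without overlap for Rps10 and Rps15a.

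The diet effect did not differ detectably between the sexes. In the interaction test 0 of 84 members passed an adjusted p of 0.1, where 0.0% of all genes did, and 0 members had an unadjusted p under 0.05, in edgeR and in DESeq2 alike. Within males alone 61 of 84 members were lower in FD (median log2 fold change -0.06, 0 called) and within females alone also 61 (median -0.07, 0 called). With 2 FD males the estimate for males is loose.

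Other genes of the translation machinery were read beside the ribosomal proteins, from lists chosen with earlier results known. None of their members passed the test for diet. Their counts of genes lower in FD stand beside 51.8% of all genes and 58.9% of the 9973 genes of at least 10 CPM. Of the 15 translation elongation and other TOP genes 13 were lower in FD (median log2 fold change -0.05), among them Eef1a1, which brings aminoacyl-tRNA to the ribosome (-0.08 ± 0.058, SE), and Btf3 of the nascent chain complex (-0.10 ± 0.057), and 0 passed the test between the sexes. Of the 30 ribosome assembly factors 25 were lower in FD (median -0.05), with Rrs1, needed for 5S particle incorporation (-0.21 ± 0.081), and Grwd1, a chaperone of Rpl3 (-0.18 ± 0.080), at the smallest p, and 2 of the 30 (6.67%, beside 6.11% of all genes) were called between the sexes, Eif6 (-0.22) and Bop1 (-0.21), both lower in males. In the mTOR list 12 of 15 were lower in FD (median -0.02). There 0 of 15 passed either test, with Myc at -0.30 ± 0.11 and Ddit4 at -0.13 ± 0.089 for diet.

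Calls between the sexes were also made for 1 of 3 ubiquitin fusion genes and for genes of the mitochondrial ribosome. Fau, which encodes RPS30 fused to a ubiquitin-like protein, was at 2.36 ± 0.20 CPM in females and 1.65 ± 0.30 CPM in males (SD, n = 6 and 5) and was called lower in males (-0.53 ± 0.14, edgeR adjusted p = 0.0740). The mitochondrial list was chosen by name, as 77 protein-coding genes called Mrpl or Mrps with a number. In males 68 of them were lower (median -0.10), beside 50.9% of all genes. Of the 77, 8 were called, all lower (10.4%, beside 3.03% of all genes called lower): Mrpl36, Mrpl43, Mrpl38, Mrps24, Mrpl55, Mrps12, Mrpl4 and Mrpl52, at -0.20 to -0.34. As for the members, calls between the sexes were few in some fits: over all genes 9 were left with the share of reads outside genes as covariate, and 17 to 120 without any one of the 7 mice that left 0 members called. The names stand for a separate ribosome that translates the mitochondrial genome, and whether each listed gene encodes a part of it was not checked. For diet 57 of these 77 genes were lower in FD, beside 51.8% of all genes, with Mrps36 (-0.25 ± 0.12) and Mrpl46 (-0.17 ± 0.091) at the smallest p and 0 called.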

How the data were processed

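RNA of 11 hippocampi was sequenced as 50-base single-end reads. The authors trimmed the reads, aligned them to mm10 with STAR, counted unique alignments per gene with featureCounts and tested with DESeq2. The deposited values are raw counts per Ensembl gene, with 5 summary lines per file that were left out of library sizes and used for the share of reads outside genes. As a covariate this share was taken of the uniquely aligned reads. No strand setting is given in the sources used here. Of the gene IDs 95.1% matched GENCODE M21. Genes with at least 10 counts in total were tested with edgeR 4.0.16 (quasi-likelihood, TMM, R 4.3.3), Benjamini-Hochberg over all of them, threshold 0.1, with DESeq2 1.42.0 as an alternative. CPM are TMM-scaled, and log2 CPM used a prior count of 2. Unique windows are 50-base stretches of each gene's top-ranked GENCODE transcript (the longest of several) found in no other annotated gene at another place, on either strand. The members, gene lists and tests were chosen with earlier results of these data known. Members with values were those past the threshold (at most 10), the 6 with the smallest p per comparison, those with ranges apart, the 4 highest and lowest per kb of unique sequence, and fixed genes and pairs. Rps4l, annotated as a pseudogene, is not analysed here. Some genes under this rule are not reported here. The scripts were tested on simulated data. Counting error and the spread between 11 mice limit the precision, and depth is 11737554 to 44447006 counts per mouse.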

Additional observations from a re-analysis of the deposited data

Results flagged for a closer look

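Of 36 groups of values checked, 2 held a mouse far from the rest of its group, and chance marks about 1 in 20. In the CD group Rpl19 was highest in CD female 1, with 1.23 CPM. Rpl23a was highest in CD female 2 with 1.37 CPM, the mouse with the fewest counts. The cause was not tested.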

How the results depend on the processing

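For diet, 0 members were called under every alternative run (DESeq2, other size factors and count filters, sex or reads outside genes as covariate, each sex alone, each mouse left out), and the median log2 fold change stayed below 0, from -0.08 to -0.03 with a mouse left out. For sex, 10 members were called, against 20 with DESeq2, 16 with at least 10 counts in every mouse, 21 with no count filter (9.92%, 11.7% and 10.1% of all genes, against 6.11%) and 0 with the share of reads outside genes as covariate, and from 0 to 21 with a mouse left out; the cause was not tested. Of the named members 5 were refitted for diet and 11 for sex, and none of their log2 fold changes changed sign. The interaction gave 0 members in DESeq2 and with each mouse left out, and 1 gene of all without CD female 3. CD and FD mice share replicate numbers by sex. Correlations between same-numbered mice, with diet and sex means removed, were 0.03, 0.47, 0.30, -0.03 and 0.12, and 3 of 5 FD mice were closest to their own number. These few mice cannot settle whether the numbers mark pairs, so the block fit is given as an alternative only. With the replicate block 0 members were called for diet, 12 had an unadjusted p under 0.05 (2 without it), the median was -0.05, and 25 of all genes were called against 14. The median level per kb was 6.74 CPM over all exons and 7.51 CPM over the unique windows of all transcripts. Depth limits the 10 members that had under 10 counts in some mouse.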
